A study of Mus musculus with 2 samples.

Results

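Mecom, Dkk2, Fgf10, Mylk, Grm7, Piezo2 and Ubash3b are 7 of the 32285 genes in the deposited table, and they are described here in mesenchymal nuclei of 2 calf muscles. The genes were selected on their level in these same nuclei, in plantaris against gastrocnemius, so every ratio between the muscles below is a description and has no test. Nuclei from C57BL/6 mice at 12 weeks of age were stained with a DNA dye, sorted and sequenced, with 1 library for gastrocnemius and 1 for plantaris. No allele, agent or treatment is named for either muscle, and the sources used here give neither the number nor the sex of the mice. With 1 library per muscle, the muscle, the animals and the library cannot be told apart, and intervals cover counting error only.

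A nucleus was taken as mesenchymal when it held 1 or more UMIs (unique molecular identifiers, each standing for 1 captured RNA molecule) of Pdgfra or Dcn. That rule took 1617 of 7374 analysed nuclei in gastrocnemius (21.9%) and 2113 of 9150 in plantaris (23.1%). A nucleus went to the Dpp4 side when it held UMIs of more of the genes Dpp4, Pi16, Cmah and Efemp1, and to the Spon1 side when it held UMIs of more of Spon1, Rtl4, Col15a1 and Thsd7a. The Dpp4 side held 194 nuclei of gastrocnemius and 319 of plantaris, and the Spon1 side held 881 and 1159. The 542 and 635 nuclei with equal numbers of both sets are called undivided, and the 5757 and 7037 nuclei with no UMI of Pdgfra or Dcn are called other nuclei.

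Mesenchymal cells of skeletal muscle, also called fibro-adipogenic progenitors, lie between the fibres, make extracellular matrix and can become fat cells or fibroblasts. They act on muscle stem cells, vessels and nerves largely through secreted factors. Cells with Dpp4 and Pi16 are known in many tissues as a fascial or adventitial fibroblast state, and Col15a1 is known from fibroblasts beside basement membrane. Of the 7 genes, Dkk2 and Fgf10 encode secreted ligands of the Wnt and fibroblast growth factor pathways, and Mecom encodes a zinc finger transcription factor of the PRDM family. Grm7 and Piezo2 encode proteins of the plasma membrane, a glutamate receptor and a mechanically gated cation channel. Mylk and Ubash3b encode enzymes that add phosphate to myosin light chains and remove it from tyrosine kinases.

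The promoters of Mecom, Dkk2 and Fgf10 are printed because on both sides these members were lower in plantaris beyond counting error. Of the sides, this held for Grm7 on the Dpp4 side alone. Each run is 300 bases from RefSeq on build GRCm38.p6, from 250 bases before an annotated start to 50 after it, on the strand of the gene. Both strands were searched for 4 sets of letters, the TATA box core TATAAA, the GATA core AGATAA, the TCF/LEF core CTTTGAT and the E-box CANNTG. Capitals mark the matches to the first 3 of these.
Mecom, chr3:30509710-30510009, minus strand: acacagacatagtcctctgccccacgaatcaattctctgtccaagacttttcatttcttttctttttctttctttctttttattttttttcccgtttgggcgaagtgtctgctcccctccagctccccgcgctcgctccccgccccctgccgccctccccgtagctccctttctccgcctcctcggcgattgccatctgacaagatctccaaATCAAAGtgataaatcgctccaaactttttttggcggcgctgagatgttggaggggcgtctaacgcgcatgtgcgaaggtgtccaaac
Dkk2, chr3:132085042-132085341, plus strand: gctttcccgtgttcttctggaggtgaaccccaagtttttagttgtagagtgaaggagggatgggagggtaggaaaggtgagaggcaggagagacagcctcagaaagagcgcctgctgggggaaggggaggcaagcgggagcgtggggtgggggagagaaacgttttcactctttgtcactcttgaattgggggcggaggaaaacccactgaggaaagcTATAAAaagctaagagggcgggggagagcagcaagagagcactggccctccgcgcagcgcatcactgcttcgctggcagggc
Fgf10, chr13:118714449-118714748, plus strand: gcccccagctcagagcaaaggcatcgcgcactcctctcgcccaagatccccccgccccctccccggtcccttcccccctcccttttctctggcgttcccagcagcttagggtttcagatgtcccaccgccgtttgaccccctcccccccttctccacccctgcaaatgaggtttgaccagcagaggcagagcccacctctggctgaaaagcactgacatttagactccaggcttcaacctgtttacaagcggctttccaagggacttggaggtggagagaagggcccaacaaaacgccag
The Dkk2 run holds TATAAA from base 219, letters that 13.6% of the 32851 promoters of this length in the RefSeq table hold on either strand. The Mecom run, from the first of its 2 windows in that table, holds CTTTGAT on the opposite strand from base 213, where it reads ATCAAAG in capitals, and 3.73% of promoters hold such a match. The Fgf10 run holds none of those 3. The E-box, left in lower case, has 2 matches in the Mecom run, 2 in the Fgf10 run and 0 in the Dkk2 run, and 72.3% of promoters hold one. A match describes the letters alone.

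Gastrocnemius held 19048595 UMIs and plantaris 29248275, and the median mesenchymal nucleus held 1523 and 2070 UMIs. The libraries share 17 barcodes. The class was checked against 12 other mesenchymal markers, among them Col1a1, Col3a1, Lum and Fbn1. Nuclei with 3 or more of these made up 74.3% of mesenchymal nuclei in gastrocnemius and 81.4% in plantaris, against 13.8% and 19.7% of other nuclei. On the Dpp4 side the shares were 89.2% and 92.8%, on the Spon1 side 93.0% and 94.1%, and in undivided nuclei 38.6% and 52.6%. The undivided nuclei also held 7.48% and 5.40% of their UMIs in the myonuclear genes Ttn, Neb, Ckm, Ryr1, Dmd and Mylk4, close to the 8.83% and 7.02% of other nuclei, so the name mesenchymal holds less well for them. Nuclei with 2 or more markers of another cell type were 122 of the mesenchymal nuclei of gastrocnemius (7.54%) and 296 of those of plantaris (14.0%). Myonuclei are not among these types. By 2 or more of the 6 myonuclear genes, 1494 and 1830 mesenchymal nuclei were assigned as myonuclear. Values without nuclei of another type still include these nuclei. Dcn, which takes part in the choice of nuclei, was at 895 CPM (counts per 1000000 UMIs of the class) in gastrocnemius and 593 in plantaris, while Pdgfra was at 298 and 281. Of the genes that set the Spon1 side, Spon1 (337 and 148 CPM), Rtl4 (754 and 463) and Thsd7a (468 and 312) were lower in plantaris and Col15a1 (257 and 398) was higher. Of the genes that set the Dpp4 side, Dpp4 was at 103 and 108 CPM and Cmah at 82.1 and 127. Among check markers, Col1a1 (50.9 and 99.1) and Col1a2 (236 and 339) were higher in plantaris, and Abca8a (1366 and 899) and Ebf2 (1139 and 867) were lower. The part of these marker levels in the results below was not tested.

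In mesenchymal nuclei as a whole, Mecom, Dkk2, Fgf10 and Grm7 were lower in plantaris by a log2 ratio of CPM of -1.36 to -1.94, and Piezo2 and Ubash3b were higher by 1.03 and 1.23. Mylk differed by 0.39. Among 12562 genes with 20 or more UMIs, 1.76% had a log2 ratio of -1 or less and 7.97% had 1 or more, and 4 and 2 of the 7 members were among them; nothing is read from these counts, since the contrast chose the members. The median of those genes was 0.17, so the level of the median gene was slightly higher in plantaris on this scale. Scaled instead by the median ratio of genes, the members' log2 ratios were -1.53 for Mecom, -2.11 for Dkk2, -1.64 for Fgf10, -1.82 for Grm7, 0.22 for Mylk, 0.86 for Piezo2 and 1.06 for Ubash3b. That scaling put 373 genes below and 684 above the fold, against 221 and 1001 with CPM. The plot of levels by class shows the 7 genes on their own scales.

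**Figure D1:**
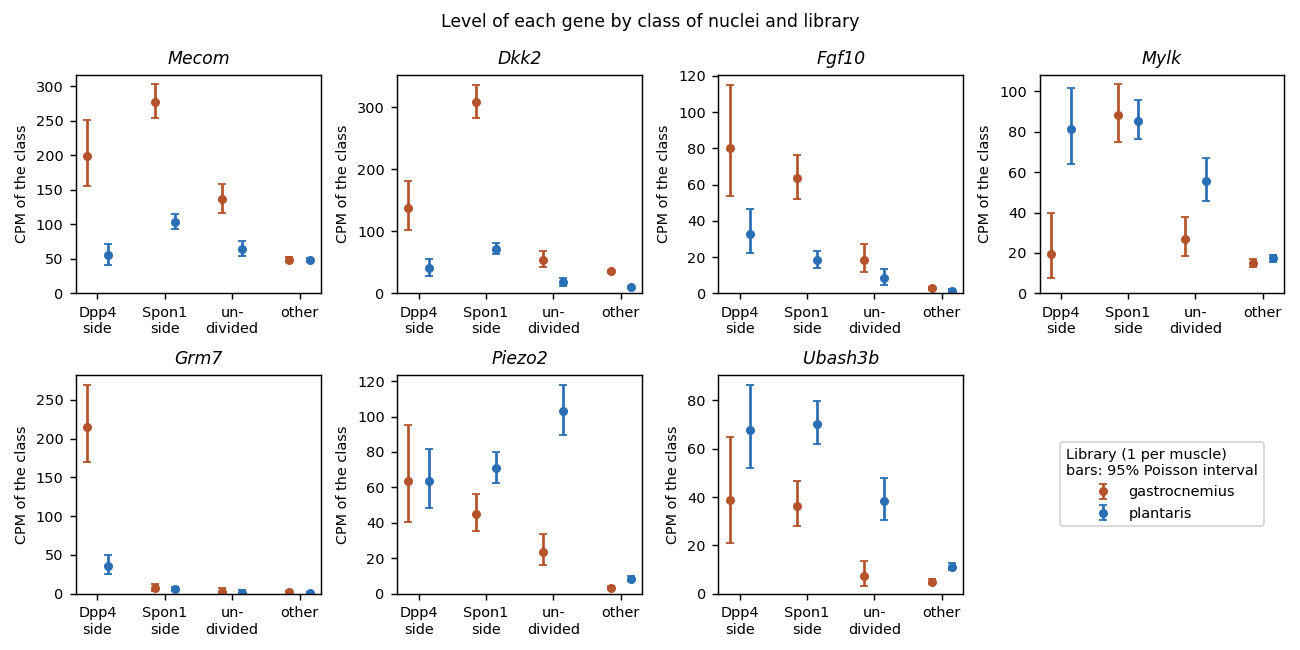
Level of each gene (y axis, CPM of the class total, linear scale from 0) in Dpp4-side, Spon1-side, undivided and other nuclei (x axis) of gastrocnemius and plantaris, 1 library each, with 95% Poisson intervals. Mecom, Dkk2 and Fgf10 lie lower in plantaris on both sides, Grm7 is high in Dpp4-side nuclei of gastrocnemius at 215 CPM, and Mylk is low there at 19.3 CPM.

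Dkk2 encodes a secreted Dickkopf protein that binds the Wnt co-receptors LRP5 and LRP6 and can dampen or, in some settings, raise Wnt signalling. It lies at chr3:132085292-132180304 (mm10, plus strand). Mesenchymal nuclei held 655 Dkk2 UMIs in gastrocnemius (195 CPM, 95% Poisson interval 180 to 211) and 334 in plantaris (50.8 CPM, 45.5 to 56.6). Plantaris was the low library, and the intervals did not overlap. The log2 ratio was -1.94 (95% interval -2.13 to -1.75), which is 3.84-fold higher in gastrocnemius.

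Dkk2 was lower in plantaris in every class of nuclei. Spon1-side nuclei held 309 CPM in gastrocnemius against 72.4 in plantaris (log2 ratio -2.10, -2.32 to -1.88). Dpp4-side nuclei held 138 and 40.2 CPM, a log2 ratio of -1.78 (-2.43 to -1.14). Between the sides, Dkk2 was thus the higher on the Spon1 side in each library, by a log2 ratio of Dpp4 over Spon1 side of -1.16 (-1.61 to -0.74) in gastrocnemius and -0.85 (-1.38 to -0.35) in plantaris. Undivided nuclei held 54.5 and 17.7 CPM, and other nuclei 35.4 and 10.3, a log2 ratio of -1.78 there too.

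The share of nuclei with a Dkk2 UMI was also lower in plantaris. It was 19.1% of mesenchymal nuclei in gastrocnemius and 8.05% in plantaris, and 13.9% and 4.59% after each nucleus was thinned to 1000 UMIs, which left out 361 and 304 shallower nuclei. In nuclei with myonuclear markers and none of Pdgfra or Dcn, the unthinned shares were 2.82% and 1.38%, at median depths of 2592 and 3044.5 UMIs. Mesenchymal nuclei held 54.1% of all Dkk2 UMIs of gastrocnemius and 58.9% of those of plantaris.

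Single nuclei outside the mesenchymal class held large shares of Dkk2. In gastrocnemius 1 nucleus with vascular endothelial markers held 97 Dkk2 UMIs, which is 17.5% of those in other nuclei, and none of the other vascular nuclei there held any. The 61 vascular nuclei of plantaris held 1 UMI. Nuclei with myonuclear markers held 451 Dkk2 UMIs in 151 nuclei of gastrocnemius, with 70 in 1 of them, and 223 in 88 nuclei of plantaris. In those of them with 5% or more myonuclear UMIs and under 3 check markers, Dkk2 was also lower in plantaris. The log2 ratio there was -1.62 (-1.93 to -1.32), with 308 against 132 UMIs.

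Fgf10 encodes a fibroblast growth factor that mesenchyme secretes and that acts mainly through the epithelial splice form of the receptor FGFR2. It lies at chr13:118669791-118792115 (mm10, plus strand). Mesenchymal nuclei held 162 Fgf10 UMIs in gastrocnemius (48.2 CPM, 41.1 to 56.2) and 114 in plantaris (17.3 CPM, 14.3 to 20.8). Plantaris was lower and the intervals did not overlap, with a log2 ratio of -1.47 (-1.83 to -1.12), or 2.78-fold higher in gastrocnemius.

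Fgf10 had the largest log2 ratio of mesenchymal over other nuclei among the members, 4.10 (3.62 to 4.62) in gastrocnemius and 3.45 (2.90 to 4.03) in plantaris, and in both libraries this interval overlaps those of Piezo2 (3.03 to 3.99 and 2.98 to 3.47) and Grm7 (2.86 to 3.97 and 1.96 to 3.26). Most of its UMIs were in the class, since mesenchymal nuclei held 78.6% and 76.0% of all Fgf10 UMIs. Other nuclei held 2.80 and 1.59 CPM, with a UMI in 0.677% and 0.426% of them against 6.25% and 3.08% of mesenchymal nuclei. Their log2 ratio between muscles was -0.82 (-1.50 to -0.15, 44 against 36 UMIs). The Dpp4 side held 80.1 and 32.8 CPM (log2 ratio between muscles -1.29, -2.07 to -0.51) and the Spon1 side 63.5 and 18.4 CPM (-1.79, -2.25 to -1.34). The sides differed beyond counting error in plantaris, where the log2 ratio of Dpp4 over Spon1 side was 0.84 (0.17 to 1.47), while in gastrocnemius it was 0.33 (-0.31 to 0.94). The plantaris UMIs lay in 17 Dpp4-side and 42 Spon1-side nuclei, and the interval does not cover their clumping within nuclei. The antisense gene Gm16263, which overlaps Fgf10, held 38 and 31 UMIs, and the sources used here do not say whether strand was used in counting.

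Mecom encodes the zinc finger protein known as EVI1 or PRDM3, best known from blood stem cells and also made in endothelium. It lies at chr3:29951296-30548008 (mm10, minus strand). Mesenchymal nuclei held 725 Mecom UMIs in gastrocnemius (216 CPM, 200 to 232) and 553 in plantaris (84.2 CPM, 77.3 to 91.5). The library of plantaris was lower with no overlap of the intervals, a log2 ratio of -1.36 (-1.52 to -1.20), or 2.56-fold higher in gastrocnemius.

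Mecom was lower in plantaris in each mesenchymal class. Dpp4-side nuclei held 199 and 55.0 CPM (log2 ratio -1.85, -2.40 to -1.32), Spon1-side nuclei 278 and 103 CPM (-1.43, -1.63 to -1.23), and undivided nuclei 136 and 64.0 CPM (-1.09, -1.43 to -0.75). Undivided nuclei with 5% or more myonuclear UMIs, 342 of 542 and 316 of 635, were at 44.5 and 46.1 CPM (0.05, -0.53 to 0.64). Other nuclei held 48.4 CPM in gastrocnemius and 48.1 in plantaris, and their log2 ratio was -0.01 (-0.14 to 0.13). Accordingly the log2 ratio of mesenchymal over other nuclei was 2.16 (2.01 to 2.31) in gastrocnemius and 0.81 (0.66 to 0.96) in plantaris. A Mecom UMI was found in 20.3% and 12.8% of mesenchymal nuclei, and in 8.60% and 9.89% of nuclei with myonuclear markers, so the share in plantaris stood little above that of the deeper myonuclear class. Thinned to 1000 UMIs, the shares were 13.7% and 6.63% in mesenchymal nuclei and 3.26% and 3.20% in the myonuclear class.

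Vascular endothelial nuclei held Mecom at a level far above that of mesenchymal nuclei, in both libraries. The 30 such nuclei of gastrocnemius held 143 UMIs (2189 CPM, 1845 to 2578) and the 61 of plantaris 229 UMIs (2656 CPM, 2323 to 3023), and these intervals overlap. Within the mesenchymal class, 7 nuclei of gastrocnemius with vascular markers held 44 of the 725 UMIs, and 8 of plantaris held 16 of 553. Without any nucleus that held 2 or more markers of another type, the log2 ratio was -1.56 (-1.76 to -1.37).

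Grm7 encodes the metabotropic glutamate receptor mGluR7, which is coupled to inhibitory G proteins and known mainly from presynaptic nerve endings. It lies at chr6:110645581-111567230 (mm10, plus strand). Mesenchymal nuclei held 93 Grm7 UMIs in gastrocnemius (27.7 CPM, 22.3 to 33.9) and 58 in plantaris (8.83 CPM, 6.70 to 11.4). The log2 ratio was -1.65 (-2.15 to -1.16), with plantaris the lower.

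Most of these UMIs lay on the Dpp4 side. Dpp4-side nuclei of gastrocnemius held 78 of the 93 UMIs (215 CPM, 170 to 269), and those of plantaris 34 of the 58 (35.9 CPM, 24.9 to 50.2), a log2 ratio of -2.58 (-3.21 to -1.99). Spon1-side nuclei held 12 and 21 UMIs (6.93 and 5.84 CPM), and their log2 ratio of -0.25 has an interval from -1.33 to 0.91 that holds 0. Between sides, the log2 ratio of Dpp4 over Spon1 side was 4.96 (4.07 to 5.97) in gastrocnemius and 2.62 (1.79 to 3.48) in plantaris. Of 8378 genes with enough UMIs on the sides, 2.45% were higher on the Dpp4 side by a log2 ratio of 1 or more in both libraries and 2.85% on the Spon1 side. Grm7 was the 1 member in the former group and no member was in the latter.

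Few nuclei carried the Grm7 counts. A UMI was found in 21 Dpp4-side nuclei of gastrocnemius and 9 of plantaris. The 3 nuclei with most held 39.7% of the Dpp4-side UMIs in gastrocnemius and 79.4% in plantaris, so the level in plantaris rests on those 3 nuclei. Other nuclei held 2.61 and 1.46 CPM, a log2 ratio between muscles of -0.84 (-1.55 to -0.15, 41 against 33 UMIs). Undivided nuclei held 3 UMIs in each library. Without the nucleus with most Grm7 in each library, the log2 ratio on the Dpp4 side was -2.98.

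Piezo2 encodes a mechanically gated cation channel, the main channel of touch and of the sense of limb position in sensory neurons. It lies at chr18:63010213-63387183 (mm10, minus strand). Mesenchymal nuclei held 131 Piezo2 UMIs in gastrocnemius (39.0 CPM, 32.6 to 46.3) and 524 in plantaris (79.7 CPM, 73.1 to 86.9). Plantaris was the higher and the intervals did not overlap, with a log2 ratio of 1.03 (0.75 to 1.32), or 2.05-fold.

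The ratio for Piezo2 differed in size between the classes. In undivided nuclei it was 23.7 against 103 CPM (log2 ratio 2.12, 1.56 to 2.72), and in Spon1-side nuclei 45.0 against 71.0 CPM (0.66, 0.29 to 1.04). On the Dpp4 side both libraries stood at nearly one level, 63.5 CPM in gastrocnemius and 63.4 in plantaris (log2 ratio -0.00183, -0.72 to 0.76). The gastrocnemius value there rests on 5 nuclei, and 1 of them, which carried lymphatic endothelial markers, held 17 of the 23 UMIs. Without the nucleus with most Piezo2 in each library, the log2 ratio on the Dpp4 side was 1.81, and without nuclei of another type it was 2.63 (0.99 to 4.97, 3 against 42 UMIs).

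Piezo2 was also measured outside the mesenchymal class. Tenocyte-marker nuclei without Pdgfra or Dcn held 8 UMIs in 9 nuclei of gastrocnemius (429 CPM, 185 to 845) and 25 in 21 nuclei of plantaris (455 CPM, 294 to 671), and these intervals overlap. Other nuclei together held 3.44 and 8.56 CPM, a log2 ratio of 1.31 (0.87 to 1.78). In those of them with myonuclear markers, 5% or more myonuclear UMIs and under 3 check markers it was 0.49 (-0.34 to 1.35), with 20 against 37 UMIs. A UMI was found in 3.90% and 10.5% of mesenchymal nuclei, against 0.617% and 1.42% of nuclei with myonuclear markers. Thinned, the mesenchymal shares were 2.63% and 6.36%.

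Mylk encodes myosin light chain kinase, the calmodulin-dependent enzyme that starts contraction of smooth muscle and non-muscle actomyosin. It lies at chr16:34745210-35002420 (mm10, plus strand). Mesenchymal nuclei held 194 Mylk UMIs in gastrocnemius (57.7 CPM, 49.9 to 66.5) and 497 in plantaris (75.6 CPM, 69.1 to 82.6). The log2 ratio was 0.39 (0.15 to 0.64), with plantaris slightly the higher, which is inside the fold used above and near the median of 0.17 over all genes.

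The sides did not share that value. Dpp4-side nuclei held 7 Mylk UMIs in gastrocnemius (19.3 CPM, 7.77 to 39.8) and 77 in plantaris (81.4 CPM, 64.2 to 102), for a log2 ratio of 2.07 (0.96 to 3.44). Spon1-side nuclei held 88.3 and 85.4 CPM, a log2 ratio of -0.05 (-0.33 to 0.24). In gastrocnemius the Dpp4 side was thus the lower, with a log2 ratio of Dpp4 over Spon1 side of -2.19 (-3.53 to -1.11), while in plantaris it was -0.07 (-0.45 to 0.29). Undivided nuclei held 26.9 and 55.6 CPM (1.05, 0.49 to 1.65). With nuclei thinned to 1000 UMIs before they were divided, the ratio was 0.56 (-1.23 to 2.69, 4 against 10 UMIs) on the Dpp4 side and -0.90 (-1.50 to -0.32) on the Spon1 side. The difference between the sides was not tested.

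Contractile and tendon cell types held more Mylk than mesenchymal nuclei. Among other nuclei, those with smooth muscle markers held 852 CPM in gastrocnemius (5 nuclei) and 777 in plantaris (13 nuclei), and pericyte-marker nuclei 215 CPM (176 nuclei) and 191 (221 nuclei). Inside the mesenchymal class, 10 nuclei of gastrocnemius with tenocyte markers held 25 of the 194 Mylk UMIs, and 37 of plantaris held 118 of the 497. The summed level of the 4 tenocyte markers in mesenchymal nuclei was 34.8 CPM in gastrocnemius, with 1 marker at 0, and 91.5 in plantaris, with none at 0.

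Leaving out the mesenchymal nuclei with 2 or more markers of another type turned the direction of Mylk. There remained 119 UMIs in 1495 nuclei of gastrocnemius and 151 in 1817 of plantaris, and the log2 ratio was -0.35 (-0.71 to 0.01). On the Spon1 side it was then -0.96 (-1.38 to -0.53), with 103 against 89 UMIs. On the Dpp4 side gastrocnemius held no Mylk UMI in 185 nuclei and plantaris held 26 in 280. With the 0 set to a floor of 3 counts plantaris was 3.84-fold higher, and the lower bound of the interval was 2.91-fold. Nuclei with markers of other types could hold RNA of more than 1 cell, and doublets were not removed; their part in the levels of Mylk was not tested.

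Ubash3b encodes STS-1, a phosphatase that binds ubiquitin and the ligase CBL and dephosphorylates tyrosine kinases, and it is well known from blood cells. It lies at chr9:41011098-41161697 (mm10, minus strand). Mesenchymal nuclei held 86 Ubash3b UMIs in gastrocnemius (25.6 CPM, 20.5 to 31.6) and 395 in plantaris (60.1 CPM, 54.3 to 66.3). Plantaris was the higher with no overlap of the intervals, a log2 ratio of 1.23 (0.89 to 1.59), or 2.35-fold.

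Ubash3b was higher in plantaris in each class, on the Dpp4 side with an interval that holds 0. Spon1-side nuclei held 36.4 and 70.4 CPM (log2 ratio 0.95, 0.55 to 1.37), Dpp4-side nuclei 38.7 and 67.7 (0.81, -0.04 to 1.76), and undivided nuclei 7.11 and 38.4 (2.43, 1.43 to 3.61). On the Dpp4 side of plantaris 3 nuclei held 38 of the 64 UMIs. The ratio there was 1.20 (0.03 to 2.60) without the nucleus with most Ubash3b in each library, and 1.63 (0.39 to 3.16) without nuclei of another type. The levels on the 2 sides did not differ beyond counting error within either library, with log2 ratios of Dpp4 over Spon1 side of 0.09 (-0.86 to 0.94) and -0.06 (-0.48 to 0.34). Macrophage-marker nuclei without Pdgfra or Dcn held 236 CPM in gastrocnemius (102 nuclei) and 151 in plantaris (187 nuclei). The mesenchymal class held 20 macrophage-marker nuclei in gastrocnemius with 14 of the 86 UMIs, and 81 in plantaris with 56 of the 395. Without nuclei of another type the log2 ratio over the mesenchymal class was 1.40 (0.99 to 1.83). Other nuclei together were at 1.19 (0.82 to 1.58), and those with myonuclear markers, 5% or more myonuclear UMIs and under 3 check markers at 0.06 (-0.94 to 1.09).

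Set side by side by class, the share of all genes past the same fold was similar. On the Dpp4 side 2.58% of genes were lower and 8.77% higher, and 4 and 1 of the members were among them. On the Spon1 side 1.95% were lower and 7.35% higher, with 3 members and 0. In other nuclei 2.22% were lower and 9.9% higher, with 1 member and 2. As in the mesenchymal class, nothing is read from the members' counts on the sides, since the contrast chose the members. That choice was made on mesenchymal nuclei, and the counts in other nuclei were not tested. The medians over all genes were 0.11 on the Dpp4 side, 0.12 on the Spon1 side and 0.22 in other nuclei. The plot of ratios by class shows the members' values against that background.

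**Figure D2:**
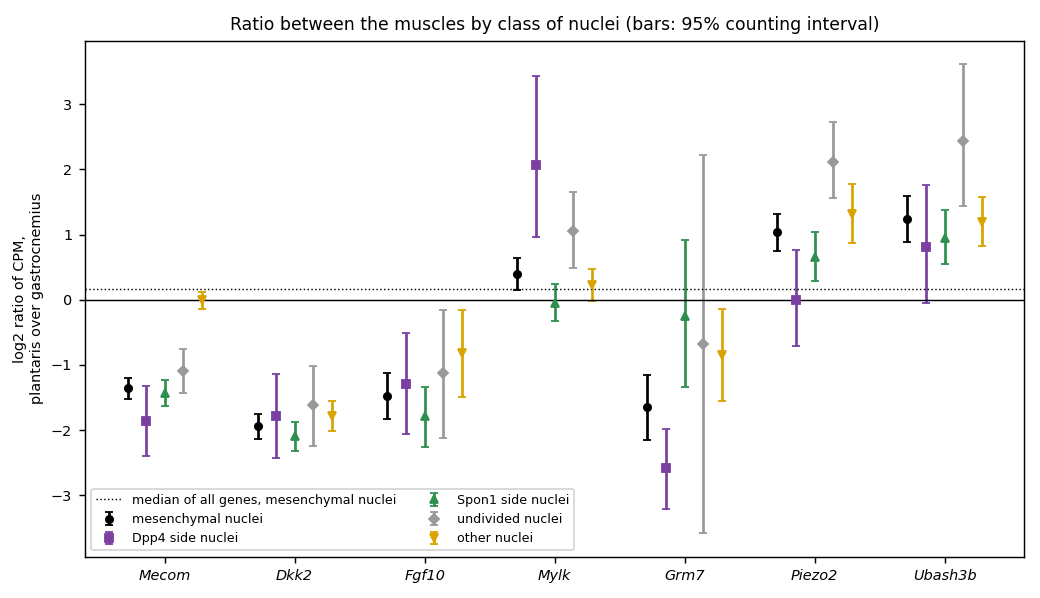
Log2 ratio of CPM in plantaris over gastrocnemius (y axis) for each gene (x axis) in 5 classes of nuclei, with 95% counting intervals; the dotted line is the median of all genes in mesenchymal nuclei, 0.17. Dkk2 lies below 0 in every class, Mecom is near 0 in other nuclei, and Mylk ranges from -0.05 on the Spon1 side to 2.07 on the Dpp4 side.

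Among nuclei with no Pdgfra or Dcn UMI, the members were found in different types. Mecom was high in vascular endothelial nuclei, Mylk in smooth muscle and tenocyte nuclei, Piezo2 in tenocyte nuclei and Ubash3b in macrophage nuclei. Fgf10 and Grm7 stood at 36.4 CPM or less in each of the types plotted. Of the types not plotted, adipocyte-marker nuclei of gastrocnemius held 3 Fgf10 UMIs in 12 nuclei (146 CPM, 30.2 to 428). The 25 Ubash3b UMIs of plantaris vascular nuclei (290 CPM) came from 4 nuclei, with 20 in 1 of them. Nuclei with myonuclear markers, the most numerous type, held 38.9 and 37.6 CPM of Mecom and 30.2 and 10.5 of Dkk2. The other members stood between 1.41 and 8.30 CPM there. Of these nuclei, 12.9% and 17.8% held 3 or more check markers. Those with 5% or more myonuclear UMIs and under 3 check markers held 29.8 and 34.5 CPM of Mecom and 23.3 and 7.58 of Dkk2. In them the other members stood between 0.919 and 2.58 CPM.

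**Figure D3:**
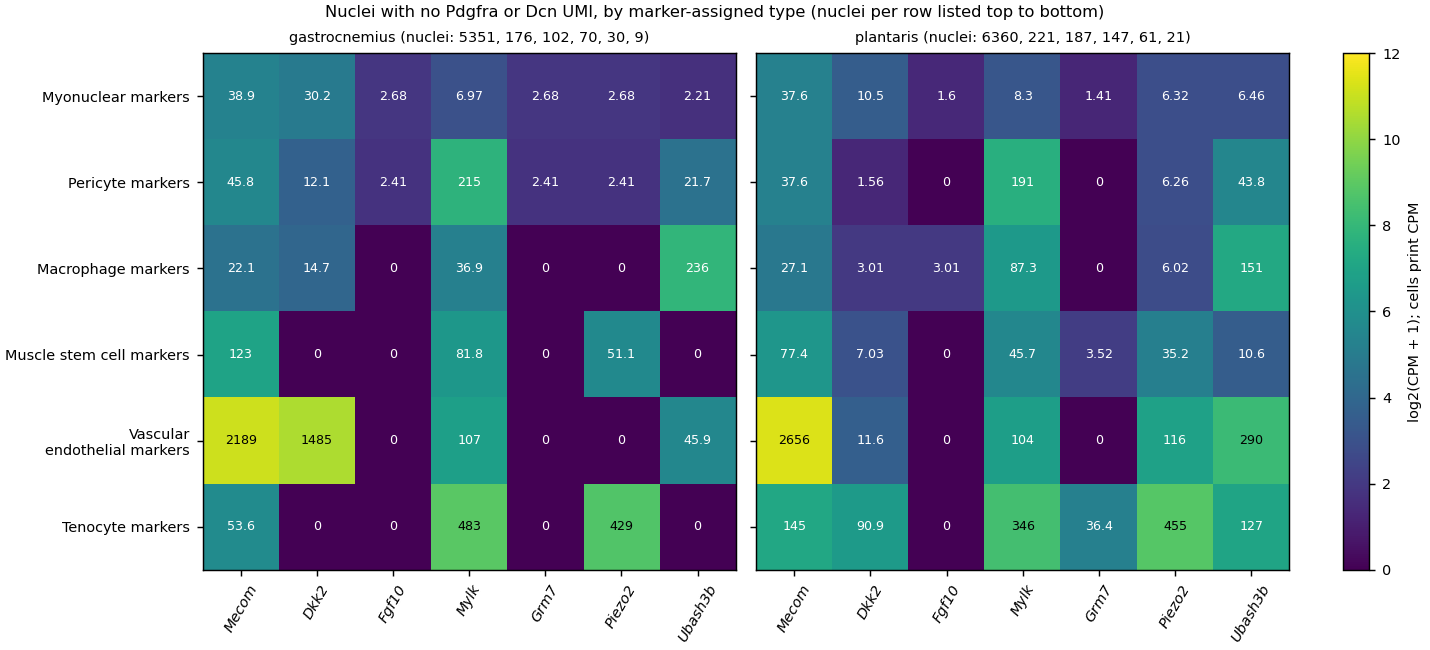
CPM of each gene (columns) in other nuclei by marker-assigned type (rows), 1 panel per library, coloured on a log2(CPM + 1) scale with CPM printed in each cell. Vascular endothelial nuclei hold 2189 and 2656 CPM of Mecom, and the 1485 CPM of Dkk2 in gastrocnemius come from 1 nucleus.

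A group of nuclei outside the mesenchymal class gave values close to those inside it. These held no Pdgfra or Dcn UMI, under 5% myonuclear UMIs, fewer than 2 markers of another type and a UMI of at least 1 of the side genes, and 75.8% of the 330 in gastrocnemius and 83.7% of the 600 in plantaris held 3 or more of the 12 check markers. Their log2 ratios were -1.61 (-2.07 to -1.15) for Mecom, -1.50 (-1.99 to -1.01) for Dkk2, -1.56 (-2.65 to -0.51) for Fgf10, 1.95 (0.73 to 3.45) for Piezo2 and 1.63 (0.62 to 2.82) for Ubash3b. For Mylk the ratio was 0.54 (-0.24 to 1.38) and for Grm7 -1.45 (-3.30 to 0.35), and both intervals hold 0. They come from the same libraries and are no replicate.

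Undivided nuclei were split in the same way. In those with under 5% myonuclear UMIs and no other type, 165 in gastrocnemius and 252 in plantaris, 84.2% and 86.5% held 3 or more check markers. There Piezo2 stood at 91.3 and 292 CPM, Ubash3b at 30.4 and 112, Mecom at 452 and 77.6, Dkk2 at 279 and 43.4, and Fgf10 at 101 and 18.3. The Piezo2 level of plantaris in these nuclei was above that of either side, and its log2 ratio between muscles was 1.68 (0.96 to 2.48). Mylk stood at 76.1 and 59.4 CPM (-0.36, -1.33 to 0.66), and Grm7 had 2 UMIs in each library. In undivided nuclei with 5% or more myonuclear UMIs, 14.9% and 21.8% held 3 or more check markers. There Mecom was at 44.5 and 46.1 CPM, Dkk2 at 13.9 and 8.46 (-0.71, with an interval that holds 0) and Piezo2 at 1.98 and 22.3 (3.49, 1.51 to 6.61, 2 against 29 UMIs). Mylk had 2 and 20 UMIs, Ubash3b 1 and 9, Fgf10 3 and 0, and Grm7 1 and 0.

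Most mesenchymal nuclei held no UMI of any member, 922 of 1617 in gastrocnemius and 1313 of 2113 in plantaris. Among the 21 pairs of members, Mylk and Piezo2 were found together most often relative to the product of their single shares. Both were found in 22 nuclei of gastrocnemius, where the product of shares gives 4.79, and in 87 nuclei of plantaris, where it gives 21.1. The ratio of observed to product was 4.59 and 4.12, and 6.65 and 4.03 in nuclei thinned to 1000 UMIs. The class included 10 and 37 nuclei with tenocyte markers, which held 25 and 118 Mylk UMIs and 16 and 54 Piezo2 UMIs. On the Spon1 side of plantaris, 80 of 130 nuclei with Mylk and 44 of 119 with Piezo2 held 2 or more markers of another type. The pair was not counted without such nuclei. Dkk2 and Fgf10 were found together in 53 and 14 nuclei, against products of 19.3 and 5.23. Mecom and Dkk2, the pair found in most nuclei of gastrocnemius, were together in 101 there against 62.7, and in 24 of plantaris against 21.7. In plantaris the pair found in most nuclei was Mylk and Piezo2. These counts describe single libraries, and depth and class differ among nuclei.

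For each member the genes with the nearest profile of log2(CPM + 1) over the 8 groups (4 classes in 2 libraries), each centred on its own mean, were taken from 10282 genes with 50 or more mesenchymal UMIs. For Mylk these were B230216N24Rik, 2900089D17Rik and Maged1, with mean absolute differences of 0.12 to 0.18. For Ubash3b they were Zfp287, Mxra8 and Mical1 (0.15 to 0.17), and for Mecom Acss3, Rgs7 and Alkal2 (0.23 to 0.31). Piezo2 was nearest to Ephb2, Nrxn3 and Cd9 (0.25 to 0.28), and Fgf10 to Tmem26, Hrh2 and Il1rl2 (0.28 to 0.32). Dkk2 and Grm7 had more distant neighbours, Col4a6, Ogfrl1 and Hif3a (0.40 to 0.46) for Dkk2, and Sema3d, Pygl and Chst1 (0.52 to 0.55) for Grm7. Among the members themselves, Piezo2 and Ubash3b were nearest at 0.63 and Mecom and Dkk2 at 0.65. Likeness here compares 8 summed values from 2 libraries.

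Other genes of the members' pathways were followed in mesenchymal nuclei from lists that do not contain the members. Of 54 Wnt antagonists, ligands and receptors, 31 had 20 or more UMIs; 7 were higher in plantaris by a log2 ratio of 1 or more and 1 was lower, with a median of 0.11. Over all genes the shares were 7.97% higher and 1.76% lower, as above, which is the background for each list that follows. Wnt5b, a non-canonical Wnt ligand, was the most abundant of those higher, at 19.3 and 44.0 CPM (log2 ratio 1.18, 0.79 to 1.60), while Dkk3, Lgr6, Wnt2, Fzd3, Fzd6 and Lef1 had at most 52 UMIs in a library. The interval of Fzd6, -0.19 to 2.99, holds 0. Dkk3 was at 0.74 and Fzd6 at 0.44 without nuclei of another type, and the rest of those higher stayed past the fold. Rspo3, an agonist that stabilises Wnt receptors, was the lower one, at 10.4 and 4.87 CPM (-1.10, -1.84 to -0.36). The most abundant genes of the list, Ror1, Tcf7l2 and Tcf7l1, stood at log2 ratios of -0.24, 0.11 and 0.04.

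Of 30 genes of fibroblast growth factor ligands, receptors and feedback, 23 were measured; 3 were higher, none lower, and the median was 0.06. Fgf1, a broadly acting ligand, stood at 66.7 and 151 CPM (log2 ratio 1.18, 0.97 to 1.40), opposite in direction to Fgf10. Fgf18 (1.19) and the transcription factor Etv4 (1.06) were the others, and Etv4 was at 0.78 without nuclei of another type. The abundant genes Fgf13, Fgfr1 and Fgfr2 were at -0.30, -0.06 and -0.63, and Fgfr2 encodes the receptor for Fgf10.

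Of 33 glutamate receptor and scaffold genes, 20 were measured; 2 were higher, 1 lower, and the median was -0.13. The most abundant were all lower inside the fold: Grm8, a receptor of the same group as Grm7, at 461 and 265 CPM (log2 ratio -0.80, -0.90 to -0.70), the scaffold Homer1 at 350 and 184 CPM (-0.93) and the ionotropic receptor Gria3 at 178 and 116 CPM (-0.62). Grip2 (2.30) and Grik4 (1.29) were higher and Slc1a2 (-1.32) lower, each with 91 UMIs or fewer in a library. Slc1a2 was at -0.94 without nuclei of another type.

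The remaining lists had few genes past the fold. Of 18 mechanosensitive channels and partners, 12 were measured, with a median of 0.26, and Tmem120a (1.21) and Mdfi (1.15) were higher at 59 UMIs or fewer. The interval of Mdfi, -0.16 to 2.72, holds 0, and Tmem120a was at 0.97 without nuclei of another type. The abundant Trpm7, Pkd1 and Pkd2 were at -0.15, 0.16 and 0.26. Of 25 genes of myosin light chain phosphorylation, 21 were measured with a median of 0.10; Ppp1r12c (1.02) and Acta2 (1.70) were higher and Mylk4 (-1.49) lower. Mylk4 is also 1 of the 6 myonuclear genes, and Acta2, a smooth muscle actin, was at 0.04 without nuclei of another type. The abundant Ppp1r12b and Rock2 were at 0.06 and 0.10.

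Of 22 genes of CBL, UBASH3 and tyrosine kinase signalling, 18 were measured with a median of 0.05, and Csf1r, a macrophage receptor, was the 1 past the fold at 1.51 (12 against 67 UMIs), and at 1.63 without nuclei of another type. Egfr, Igf1r and Cblb, the abundant ones, were at 0.23, -0.10 and -0.15. Of 27 PRDM factors and MECOM partners, 22 were measured with a median of 0.13, and Runx1, a transcription factor of blood and mesenchyme, was at 29.2 and 71.7 CPM (log2 ratio 1.30, 0.98 to 1.63), or 0.68 without nuclei of another type. The abundant Crebbp, Smad3 and Ehmt1 were at -0.12, -0.09 and 0.04. The plot of pathway genes shows that the lists' medians, from -0.13 to 0.26, lay around the 0.17 of all genes.

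**Figure D4:**
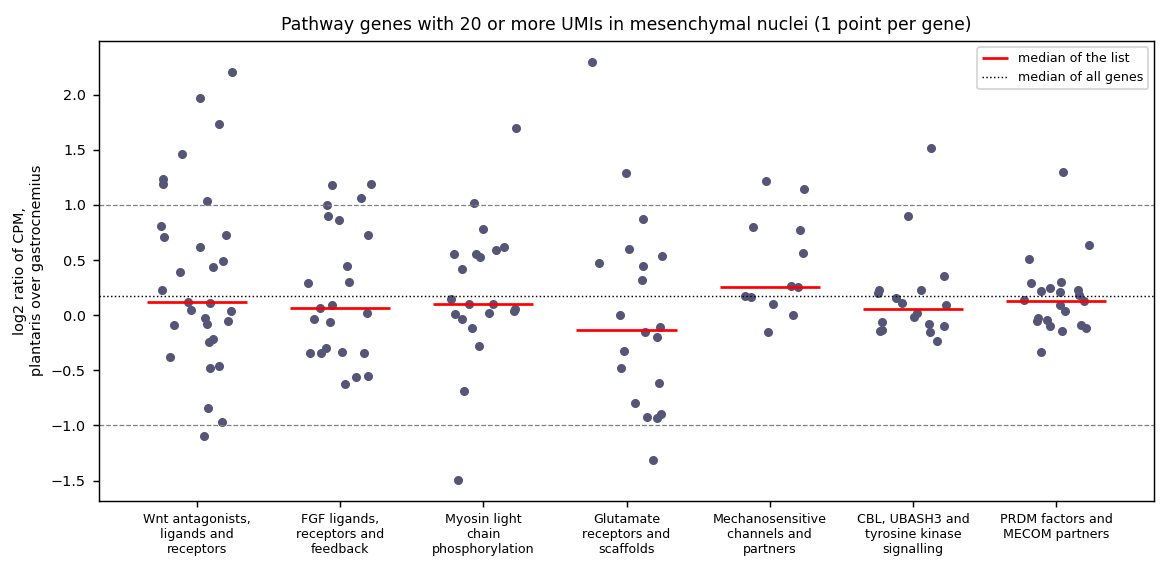
Log2 ratio of CPM in plantaris over gastrocnemius in mesenchymal nuclei (y axis) for genes of 7 pathway lists (x axis), 1 point per gene with 20 or more UMIs, red lines at the list medians, dashed lines at -1 and 1 and a dotted line at the median of all genes. The medians lie between -0.13 and 0.26, and 1 to 7 genes per list are above 1.

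Across the choices of nuclei and scaling, the 4 members lower in plantaris and the 2 higher kept their direction in mesenchymal nuclei. Mecom ranged from -2.02 to -1.36, Dkk2 from -2.41 to -1.71, Fgf10 from -2.01 to -1.34 and Grm7 from -2.59 to -1.19. Piezo2 ranged from 0.41 to 1.41 and Ubash3b from 0.83 to 1.40. Mylk ranged from -0.71 to 0.41, below 0 when nuclei had to hold both Pdgfra and Dcn, when nuclei of another type were left out, and when each nucleus counted equally. The plot of ratios under each choice shows this spread.

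**Figure D5:**
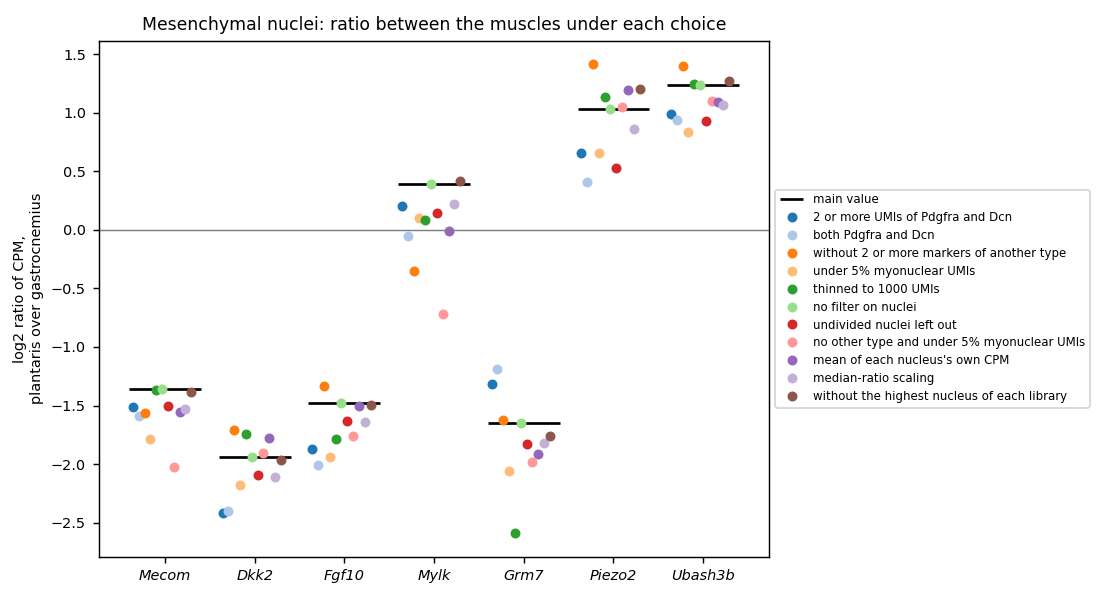
Log2 ratio of CPM in plantaris over gastrocnemius in mesenchymal nuclei (y axis) for each gene (x axis) under 11 other choices of nuclei, depth or scaling (points) beside the value used in the text (black lines). Points of Mylk lie on both sides of 0, from -0.71 to 0.41, and those of every other gene stay on 1 side.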

How the data were processed

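Single-nucleus RNA sequencing of 2 libraries was analysed, gastrocnemius and plantaris. The authors deposited 1 table of UMI counts and the library of each barcode, made with Cell Ranger 6.0.1 and build mm10, per the submitters' processing notes. The sources used here give no annotation, strand or intron settings. The members and the lists were chosen with earlier results of these data known.

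Nuclei with under 200 genes or 5% or more mitochondrial UMIs were left out, which removed 6 of plantaris. Doublets were not removed. UMIs were summed per class and library and given as CPM, with exact Poisson intervals, exact conditional binomial intervals for ratios and a floor of 3 counts for 0, all at 95%. Shares were thinned to 1000 UMIs with 1 seed. Other types needed 2 or more of their markers. Where nuclei of another type were left out, myonuclei were not counted as another type. Named genes were the members, the list genes past a log2 ratio of 1 or -1, the 3 most abundant of each list, and the 3 nearest profiles. Coverage of the ratio intervals was checked on simulated Poisson counts of summed nuclei. Those counts hold no clumping of UMIs within nuclei, so the check cannot show how the intervals behave under it. Positions are from GENCODE, and promoters from RefSeq. Promoter windows on chromosome 18, which holds Piezo2, were left out by choice, and each of the other 6 members matched. Tools were Python 3.11.15, numpy 2.4.6, scipy 1.17.1, pandas 2.3.3 and matplotlib 3.10.9.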

Additional observations from a re-analysis of the deposited data

Results flagged for a closer look

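For 2 genes the ratio between the muscles had opposite signs on the sides of the mesenchymal nuclei; with 1 library per muscle the differences were not tested. The log2 ratio of Mylk, plantaris over gastrocnemius, was 2.07 on the Dpp4 side and -0.0479 on the Spon1 side, and the latter's interval of -0.33 to 0.24 holds 0. Thinned to 1000 UMIs before nuclei were divided, Mylk was at 0.56 (-1.23 to 2.69, 4 against 10 UMIs) and -0.90 (-1.50 to -0.32). That of Piezo2 was -0.00183 on the Dpp4 side and 0.656 on the Spon1 side, and the former's interval of -0.72 to 0.76 holds 0. Without the nucleus with most Piezo2 in each library, the Dpp4-side value of Piezo2 was 1.81 and both sides had the same sign.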

How the results depend on the processing

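No value changed its side of 0 except those of Mylk given below, and Piezo2 on the Dpp4 side and Grm7 on the Spon1 side, whose main values lay near 0. Of the 85 values of the members in mesenchymal nuclei and of the counts of genes under other choices, 51 stayed within the counting interval or within 1.5 times the count, and 34 moved. With 2 or more UMIs of Pdgfra and Dcn the log2 ratio of Dkk2 was -2.41, of Fgf10 -1.87 and of Piezo2 0.66. With both genes required, Mecom was at -1.59, Dkk2 at -2.40, Fgf10 at -2.01, Mylk at -0.0515 and Piezo2 at 0.41. Without nuclei of another type, Mecom was at -1.56, Dkk2 at -1.71, Mylk at -0.35 and Piezo2 at 1.41. With under 5% myonuclear UMIs, Mecom was at -1.78, Dkk2 at -2.18, Fgf10 at -1.94, Mylk at 0.10, Piezo2 at 0.65 and Ubash3b at 0.83. With the 2 conditions together, a choice made after seeing the data, Mecom was at -2.02 and Mylk at -0.71. Without undivided nuclei, also chosen then, Mylk was at 0.15 and Piezo2 at 0.53. Thinned to 1000 UMIs, Dkk2 was at -1.75, Mylk at 0.0798 and Grm7 at -2.59. When every nucleus weighed the same, Mecom was at -1.56 and Mylk at -0.0109, and with median-ratio scaling Mecom was at -1.53. The count of genes past the fold, 221 lower and 1001 higher, was 2843 and 1758 with 1 or more UMI, 111 and 526 with 50 or more, 373 lower with median-ratio scaling and 661 higher after thinning. Fewer or more genes tested enters the first 2 of these by construction; the cause of the others was not tested.

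With the sides set 2 or more genes apart, Grm7 on the Spon1 side was at 3.18 (0.52 to 8.55), from 1 against 19 UMIs. Mecom on the Dpp4 side was then at -4.14 (-5.67 to -2.87), from 36 against 6 UMIs. Thinned before the division, Mylk was at 0.56 on the Dpp4 side and -0.90 on the Spon1 side, and Piezo2 at 1.70 on the Dpp4 side. Leaving out a replicate was not possible with 1 library per muscle. No paired analysis was possible for the same reason, and no test was made. Depth limits all 7 members on the Dpp4 side, where 7 to 78 UMIs stand behind a value.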
